A study of Mus musculus with 9 samples.

Results

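The insulin-like growth factor (IGF) genes examined here were 10 genes: the ligand genes Igf1 and Igf2, the receptor genes Igf1r, Igf2r and Insr, the binding protein genes Igfbp1, Igfbp2, Igfbp3 and Igfbp4, and Igfals, which encodes the acid-labile subunit. They were taken as all probe sets of an Affymetrix Mouse Genome 430 2.0 array whose platform annotation gave 1 gene symbol equal to a member. This gave 27 probe sets of 45037 and 10 genes of 18193, each gene being read mainly by its brightest probe set, judged by the mean of the 9 arrays. The arrays held RNA of 5 hepatocellular carcinomas (HCC) and 4 normal livers of the mouse, 1 array per sample. The tumours came from mice called triple knockout (TKO) in the titles, whose listed genotype is RbΔ/Δ; p130Δ/Δ; p107+/-, that is, deletion of Rb and p130 with p107 heterozygous. Adenovirus carrying Cre recombinase (Ad-Cre) had been given through the spleen 4 months before dissection. The livers were wild type, adult and without tumours, and nothing in the labels says that they had received virus. Genotype, virus and tumour state therefore changed together between the groups and cannot be told apart. The sources used here give neither the promoter driving Cre nor ages in numbers, and do not say whether each sample came from its own animal, so each p-value rests on the spread among these samples alone, which may be technical.

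IGF1 and IGF2 are small secreted hormones that resemble insulin. Both signal through the IGF1 receptor, a tyrosine kinase, and IGF2 also through the insulin receptor, whereas the IGF2 receptor takes IGF2 up for breakdown and carries mannose 6-phosphate-tagged enzymes to lysosomes. In the adult, the liver makes most of the circulating IGF1 under growth hormone, and IGF1 travels in blood in a complex with IGFBP3 and the acid-labile subunit. Igf2 is an imprinted gene read from the paternal copy, active in the fetal liver and largely silent in the adult mouse liver. Binding proteins hold the ligands away from their receptors or prolong their life.

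With limma and a Benjamini-Hochberg threshold of 0.05 over all 18193 genes, 6 of the 10 members differed between tumours and livers, as did 33.5% of all genes. Higher in the tumours were 2 (Igf2 and Igf2r; 16.1% of all genes) and lower were 4 (Igf1, Igfals, Insr and Igf1r; 17.4% of all genes). The call of Igf2r depended on scaling and that of Igf2 on single arrays, as given below for each gene. The tumour and liver values did not overlap for 4 members (29.8% of all genes), namely the 4 that were lower. The median log2 difference of the members, tumours minus livers, was -0.19, against -0.08 over all genes. Values are log2 expression from the deposited table, which ran from 3.13 to 15.5, and levels of different genes are not compared because each probe set has its own response. Array medians ran from 6.22 to 6.27. TrpnX, a bacterial control gene absent from the mouse, read 3.69 to 4.36, which marks the background.

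**Figure D1:**
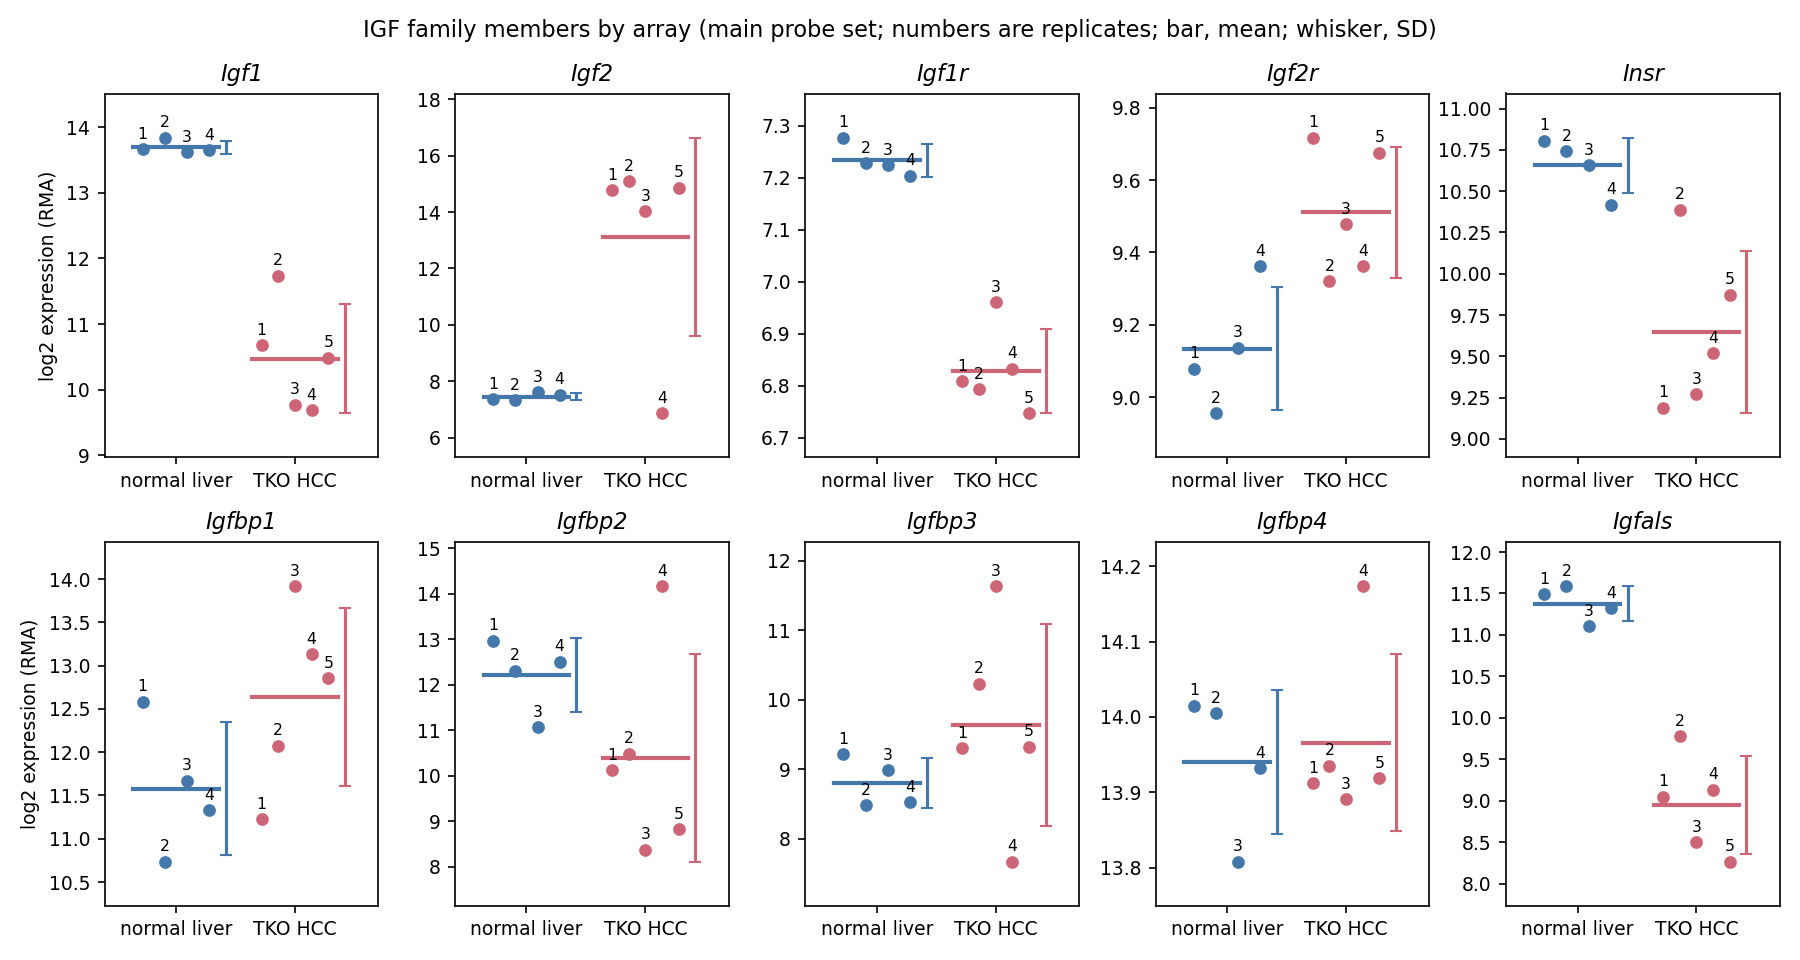
Log2 expression (y axis, own scale for each gene) of the 10 members on each array, with normal livers in blue and TKO HCCs in red, the replicate number beside each point, the group mean as a bar and the SD as a whisker (n = 4 and 5). In the Igf2 panel tumour 4 stands at 6.87, with the livers, while the other tumours stand at 14.03 to 15.09. Igf1, Igf1r, Insr and Igfals have all tumours below all livers.

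The stretches before the start sites of 4 members are shown because these genes carry the main patterns below: Igf2 and Igfbp2 set tumour 4 apart from the other tumours, and Igf1 and Igfals fell in every tumour. RefSeq promoter windows of the GRCm38.p6 assembly, cut to the 250 bases before each start, were found for 9 of the 10 members, 15 windows in all. Capitals mark matches, on both strands and with no overlap between motifs, to 4 motifs. The classic core promoter box near the start of transcription was searched as TATAAA. The box bound by factors of the SP1 kind was searched as GGGCGG. The core bound by STAT factors, which growth hormone activates, was searched as TTCNNNGAA, and the core of insulin response elements as CAAAACA. The Igf2 window, 1 of 4, lies at chr7:142658805-142659054 on the minus strand, that of Igfbp2, 1 of 2, at chr1:72824230-72824479 on the plus strand, that of Igf1 at chr10:87860861-87861110 on the plus strand, and that of Igfals, 1 of 3, at chr17:24877594-24877843 on the plus strand.
Igf2: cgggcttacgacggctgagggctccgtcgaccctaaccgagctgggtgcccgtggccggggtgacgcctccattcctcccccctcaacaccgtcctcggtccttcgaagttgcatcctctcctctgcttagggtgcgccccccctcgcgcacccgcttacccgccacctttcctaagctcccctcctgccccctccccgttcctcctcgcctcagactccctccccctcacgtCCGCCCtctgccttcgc
Igfbp2: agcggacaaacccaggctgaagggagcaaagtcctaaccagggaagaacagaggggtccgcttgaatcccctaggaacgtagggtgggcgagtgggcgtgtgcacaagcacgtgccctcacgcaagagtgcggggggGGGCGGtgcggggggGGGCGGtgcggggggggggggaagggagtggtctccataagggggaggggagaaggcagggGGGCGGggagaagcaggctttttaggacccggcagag
Igf1: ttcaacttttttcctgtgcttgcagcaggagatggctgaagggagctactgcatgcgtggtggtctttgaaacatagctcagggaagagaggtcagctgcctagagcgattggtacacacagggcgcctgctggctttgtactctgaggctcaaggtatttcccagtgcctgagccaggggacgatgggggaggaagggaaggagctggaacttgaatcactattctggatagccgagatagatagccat
Igfals: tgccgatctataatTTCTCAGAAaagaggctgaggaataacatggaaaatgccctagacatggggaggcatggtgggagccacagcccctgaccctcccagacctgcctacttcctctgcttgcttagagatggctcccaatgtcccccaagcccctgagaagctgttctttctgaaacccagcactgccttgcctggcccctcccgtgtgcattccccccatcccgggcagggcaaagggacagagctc
The Igfals window held TTCTCAGAA, beginning 236 bases before the start, and a second Igfals window (chr17:24877981-24878230) held TTCCTAGAA 58 bases before its own start. This core occurred in 7.02% of all 32851 windows and in no window of the other members. Igfbp2 held 3 GGGCGG boxes and the Igf2 window shown held 1 on the opposite strand, a motif found in 32.7% of all windows. Windows of Igf1r and Igf2r, Igfals windows not shown and another Igf2 window held GGGCGG as well. The only member window with CAAAACA was that of Igfbp1, 108 bases before the start (5.56% of all windows), and the only one with TATAAA that of Igfbp4 (12.4% of all windows). No match of these 4 motifs was found in the Igf1 window. A match is a run of letters and not a measured binding site, and the arrays do not show which start site a transcript used.

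Igf2, the fetal growth factor gene, was the member with the largest difference and the most uneven one. Its log2 values were 14.77, 15.09, 14.03, 6.87 and 14.86 in tumours 1 to 5 and 7.36, 7.33, 7.62 and 7.53 in livers 1 to 4. Tumours 1, 2, 3 and 5 thus stood far above every liver, whereas tumour 4 stood below every liver. Tumours averaged 13.12 ± 3.52 (SD, n = 5) and livers 7.46 ± 0.14 (SD, n = 4), a log2 difference of 5.66 (SE 1.56, 95% interval 2.15 to 9.18, limma adjusted p = 0.0215). Only 0.0495% of all genes had a larger SD among the tumours. Without tumour 4 the difference was 7.23 (SE 0.21, adjusted p = 2.36e-07), a 149.6-fold higher mean in the other 4 tumours, at 14.69 ± 0.46 (SD, n = 4). Tumour 4 was singled out by its own Igf2 value, so this smaller adjusted p is no separate evidence. With all 5 tumours the call was close to its limit: it was lost without tumour 5 (5.23, adjusted p = 0.0503), liver 1 (5.63, 0.0547) or liver 2 (5.62, 0.0513), and the adjusted p over the 9 fits with 1 array left out ran from 2.36e-07 to 0.0547. It was also lost without the 3 arrays of low Xist (tumours 1 and 2 and liver 4), where tumour 4 was 1 of 3 remaining tumours (4.48, adjusted p = 0.142). Xist read 6.34 to 6.66 on those 3 arrays and 12.68 to 13.55 on the others, so samples within each group differed in it.

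The second Igf2 probe set showed the same split at lower readings. It gave 9.94, 10.49, 8.83, 5.11 and 10.20 in tumours 1 to 5 and 5.43, 4.92, 5.25 and 5.30 in livers 1 to 4, a difference of 3.69 (SE 0.98, adjusted p = 0.0212). Tumour 4 lay among the livers and the other tumours above them. The readings of the first probe set in the high tumours were near the top of the scale, where differences can be compressed. Ins2, an insulin gene and the nearest protein-coding neighbour of Igf2 on chromosome 7, differed by 0.03 (SE 0.21, adjusted p = 0.93) and read 8.22, 7.42, 7.44, 7.46 and 7.35 in tumours 1 to 5, with no split between tumour 4 and the rest.

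Igf1, the gene of the main circulating IGF, fell in every tumour. Its values were 10.68, 11.74, 9.77, 9.69 and 10.49 in tumours 1 to 5 and 13.66, 13.84, 13.62 and 13.65 in livers 1 to 4. All tumours were below all livers, tumour 2 being the nearest to them and tumours 3 and 4 the farthest. The tumour mean was 10.47 ± 0.83 (SD, n = 5) against a liver mean of 13.69 ± 0.10 (SD, n = 4), a log2 difference of -3.22 (SE 0.37, 95% interval -4.07 to -2.38, adjusted p = 0.000276) or a 9.34-fold lower level. All 4 Igf1 probe sets passed, with differences of -3.19 to -3.24, and each had its highest tumour value in tumour 2.

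Igfals, whose product stabilises IGF1 in the blood, fell as well. Tumours 1 to 5 gave 9.05, 9.78, 8.50, 9.13 and 8.27, and livers 1 to 4 gave 11.49, 11.59, 11.10 and 11.32. The groups did not overlap, and tumour 2 was again the highest tumour. Igfals differed by -2.43 log2 units (SE 0.28, 95% interval -3.06 to -1.80, adjusted p = 0.000267), a 5.40-fold lower level. Both ligand-complex genes kept their calls in the fits with 1 array left out, with ranges of -3.54 to -3.03 for Igf1 and -2.64 to -2.26 for Igfals.

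The 3 receptor genes had differences of at most 1.01 log2 units in either direction. Insr, the insulin receptor gene, read 9.19, 10.39, 9.27, 9.52 and 9.87 in tumours 1 to 5 and 10.81, 10.74, 10.66 and 10.42 in livers 1 to 4. The highest tumour, tumour 2, lay just below the lowest liver, liver 4. Insr differed by -1.01 log2 units (SE 0.23, adjusted p = 0.0103), a 2.01-fold lower level. The other 2 Insr probe sets read 4.98 and 6.35 in tumours and 5.03 and 6.59 in livers, and their differences of -0.05 and -0.24 did not pass (adjusted p = 0.657 and 0.0808).

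Igf1r, the gene of the signalling receptor, was slightly lower in the tumours, with little spread. Tumours 1 to 5 stood at 6.81, 6.79, 6.96, 6.83 and 6.75 and livers 1 to 4 at 7.28, 7.23, 7.22 and 7.20. No tumour reached the lowest liver. Between the groups the log2 difference was -0.40 (SE 0.07, adjusted p = 0.0021), a 1.32-fold lower level. Of the 5 Igf1r probe sets 3 passed (-0.40, -0.40 and -0.53), while the other 2 gave -0.10 and 0.10 without passing. These 2 had group means of 4.79 to 5.10, and the probe set with -0.53 was as dim, at 4.78 in tumours and 5.31 in livers.

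Igf2r, which encodes the clearing receptor, had the smallest difference that passed. Its values were 9.72, 9.32, 9.48, 9.36 and 9.68 in tumours 1 to 5 and 9.08, 8.96, 9.14 and 9.36 in livers 1 to 4. Liver 4 reached tumours 2 and 4. Igf2r differed by 0.38 log2 units (SE 0.12, adjusted p = 0.0356), or 0.20 and not past with arrays centred on their 75th percentile and -0.17, also not past, with arrays centred on housekeeping genes. These settings moved the median difference of all genes from -0.08 to -0.26 and -0.63, and relative to that median Igf2r stood at 0.46 in all 3. This follows from the method, because centring shifts all genes of an array alike, and is no sign of stability. The call was lost without tumour 1 (0.33), tumour 3 (0.39), tumour 5 (0.34), liver 1 (0.36), liver 2 (0.32) or liver 3 (0.38). The second Igf2r probe set gave 0.59 (SE 0.14, adjusted p = 0.0117), with no overlap between the groups.

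**Figure D2:**
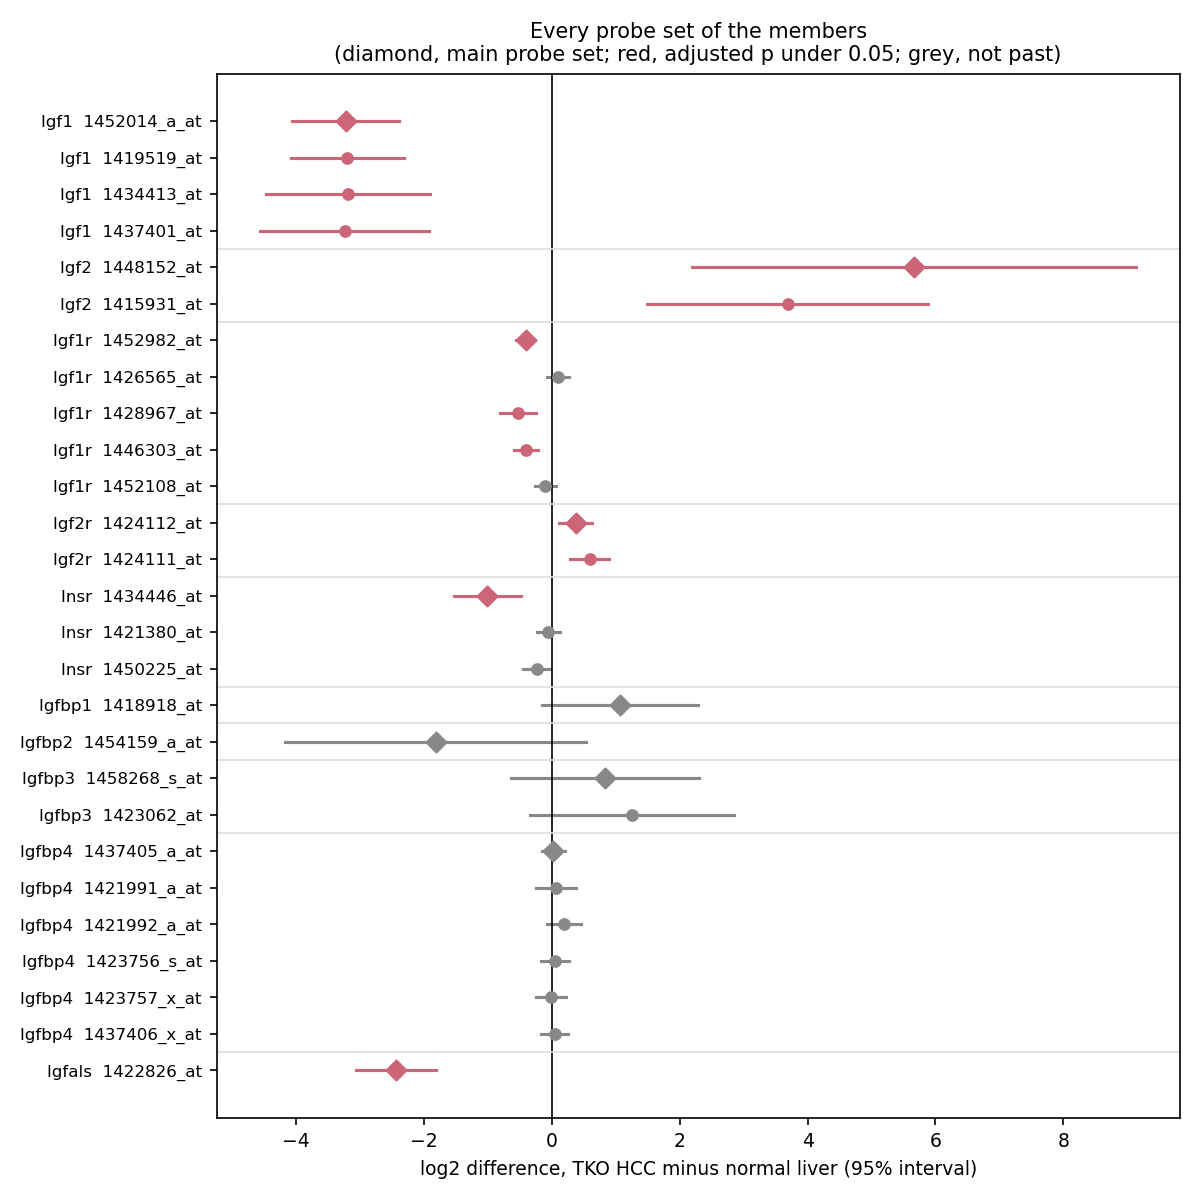
Log2 difference, TKO HCC minus normal liver, with its 95% interval (x axis) for each of the 27 probe sets of the 10 members (y axis), with a diamond for the main probe set and red for an adjusted p under 0.05. In all, 13 probe sets passed, and the intervals of Igf2 and Igfbp2 are the widest among the main probe sets.

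Over all 27 probe sets 13 passed (27.9% of all probe sets did), and none of them belonged to a binding protein gene. The binding protein genes varied widely among the tumours, except Igfbp4. Of all genes, 0.264% had a larger SD among tumours than Igfbp2, 1.01% than Igfbp3 and 2.91% than Igfbp1, but 72.1% than Igfbp4. Among the livers, too, Igfbp2 and Igfbp1 were among the more variable genes, with larger SDs in 1.49% and 1.65% of all genes.

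Igfbp2, whose product is a binding protein abundant in fetal plasma, took its highest and its lowest values of the series in tumours. It read 10.12, 10.48, 8.38, 14.17 and 8.83 in tumours 1 to 5 and 12.96, 12.31, 11.07 and 12.50 in livers 1 to 4. Tumour 4 was above every liver and the other tumours below every liver, the reverse of Igf2. Over all 5 tumours the log2 difference was -1.81 (SE 1.06, 95% interval -4.20 to 0.57, adjusted p = 0.208). Without tumour 4 it was -2.76 (SE 0.55, adjusted p = 0.00677), a 6.76-fold lower level in the other 4 tumours, whereas tumour 4 alone was 1.95 above the liver mean. Because tumour 4 was singled out by these same values, the smaller adjusted p is no separate evidence.

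Igfbp3, the main carrier of IGF1 in blood, read 9.30, 10.23, 11.63, 7.67 and 9.32 in tumours 1 to 5 and 9.21, 8.48, 8.99 and 8.53 in livers 1 to 4. Tumour 4 lay below every liver and the other tumours above every liver. The log2 difference was 0.83 (SE 0.66, 95% interval -0.66 to 2.32, adjusted p = 0.349), and the second probe set gave 1.26 (SE 0.71, adjusted p = 0.207) with the same highest and lowest tumours, although tumour 4 (7.78) there lay just above liver 4 (7.67). With 1 array left out the difference ran from 0.33 without tumour 3 (adjusted p = 0.627) to 1.32 without tumour 4 (adjusted p = 0.0738).

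Igfbp1, a gene that insulin represses in hepatocytes, gave 11.23, 12.08, 13.92, 13.13 and 12.86 in tumours 1 to 5 and 12.58, 10.74, 11.67 and 11.33 in livers 1 to 4. The groups overlapped, with tumour 3 the highest and liver 2 the lowest. The mean log2 difference was 1.06 (SE 0.55, 95% interval -0.17 to 2.29, adjusted p = 0.159). Igfbp1 and Igfbp3 are direct neighbours on chromosome 11, and both had their highest value in tumour 3 but their lowest tumour value in different tumours (1 and 4).

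Igfbp4, whose product restrains IGF action and is cleaved by the protease PAPP-A, varied little on the deposited scale. Tumours read 13.91, 13.94, 13.89, 14.17 and 13.92 and livers 14.02, 14.00, 13.81 and 13.93. Tumour 4 was the highest, by 0.24 over the next tumour. The log2 difference was 0.03 (SE 0.09, 95% interval -0.17 to 0.22, adjusted p = 0.83), and its 6 probe sets gave -0.01 to 0.20, none of them past. With housekeeping centring it was -0.52 and passed (adjusted p = 0.00239), and with 75th percentile centring -0.15 without passing (adjusted p = 0.194). In both of these settings Igfbp4 stood 0.11 above the median of all genes.

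**Figure D3:**
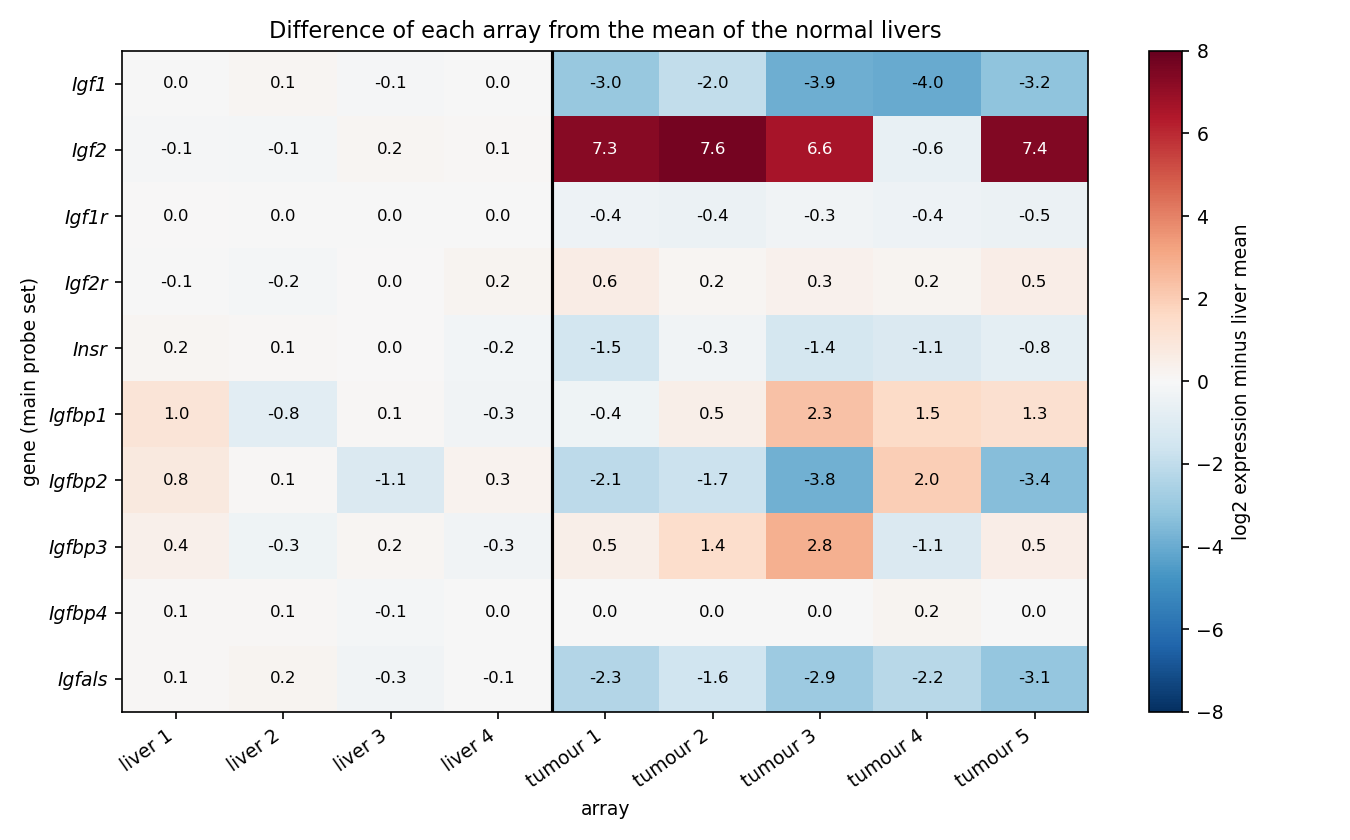
Log2 expression of each member (rows) on each array (columns, livers left of the line and tumours right) minus the mean of the 4 livers, in colour and in numbers. Igf2 lies 6.57 to 7.63 above the liver mean in tumours 1, 2, 3 and 5 and at -0.59 in tumour 4, while Igfbp2 is below it in those tumours and 1.95 above in tumour 4.

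Set side by side, the tumours formed 2 patterns for Igf2, Igfbp2 and Igfbp3. In tumours 1, 2, 3 and 5, Igf2 and Igfbp3 were above and Igfbp2 below all livers, and in tumour 4 each of the 3 genes was on the opposite side with its brightest probe set. Some of these margins were small. Tumour 4 was 0.46 below the lowest liver for Igf2, and among the livers with the second probe set. For Igfbp3, tumours 1 and 5 were 0.09 and 0.11 above the highest liver. For Igf2, the gap of 7.15 between tumour 4 and the next lowest tumour was the largest among the genes whose lowest tumour value was in tumour 4. For Igfbp2, the gap of 3.68 between tumour 4 and the next highest tumour was likewise the largest among the genes highest there. For Igfbp3 the gap was 1.63, and 16 genes had a larger one on that side. Gaps over 1 log2 unit were found for 57 genes lowest and 147 genes highest in tumour 4, so most genes did not separate this tumour in this way. Tumour 4 did share the falls of Igf1, Igfals, Insr and Igf1r. Its Igf1 value (9.69) was the lowest of all arrays with the brightest probe set, whereas tumour 3 was the lowest with the other Igf1 probe sets. A pattern seen in 1 tumour has no replicate, and no test of tumour 4 against the others was made.

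Tumour 2 was the highest tumour for Igf1, Igfals and Insr, and thus the nearest to the livers. It was also the highest tumour for Igf2, where it stood the farthest above the livers. On a scale over all genes that sets the average liver to 0 and the average tumour to 1 (leaving the placed array out of the averages), tumour 2 stood at 0.75 and tumour 4 at 0.84, against 1.02 to 1.06 for the other tumours and -0.01 to 0.10 for the livers. Without tumour 2 the differences of Igf1, Igfals and Insr were -3.54, -2.64 and -1.19.

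The wider insulin and IGF pathway was read with a list of 56 other genes, 50 of them measured. Of these, 6 rose and 11 fell, so 34% passed, against 33.5% of all genes, and the median log2 difference was -0.01. Direction in this list depended on scaling: with housekeeping centring 1 rose and 34 fell, and with 75th percentile centring 4 rose and 18 fell. For all genes the split was 2926 higher and 3165 lower in the main setting, 1151 and 12635 with housekeeping centring, and 2328 and 7982 with 75th percentile centring. Of the 11 housekeeping genes measured, 6 were themselves higher and 1 lower in tumours on the deposited scale. Centring moved the median difference of all genes to -0.63 (housekeeping) and -0.26 (75th percentile). It shifts all genes of an array alike, so the distance of a gene from that median stays the same by construction. A gene near that median can therefore pass as lower, and a gene above it can read below 0.

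Growth hormone signalling, which drives hepatic Igf1 and Igfals, had genes that fell, genes that rose and genes that did not pass. Ghr, the growth hormone receptor gene, read 11.50, 13.00, 11.64, 11.55 and 11.97 in tumours 1 to 5 and 13.25, 13.23, 13.25 and 13.61 in livers 1 to 4. Tumour 2 lay close to the livers and the other tumours well below them. The difference, tumours minus livers, was -1.41 (SE 0.29, adjusted p = 0.00605), and 2 further Ghr probe sets passed at -2.20 and -1.68. Socs2, a STAT5 target that dampens growth hormone signalling, read 6.42, 10.05, 7.98, 8.63 and 6.70 in tumours 1 to 5 and 10.88, 11.05, 9.64 and 10.12 in livers 1 to 4. Only tumour 2 overlapped the livers. The difference was -2.47 (SE 0.70, adjusted p = 0.0251), a call lost without tumour 5 (-2.15), liver 1 (-2.32) or liver 2 (-2.26). Stat5b, the transcription factor gene, was 0.44 higher without passing (adjusted p = 0.057; -0.11 with housekeeping centring) and passed without tumour 1 (0.51) or tumour 3 (0.52). A second Stat5b probe set went the other way, at -0.19 (SE 0.08, adjusted p = 0.106), also without passing. Its close relative Stat5a rose, with tumours at 8.30 to 8.83 and livers at 7.66 to 8.11 and no overlap. Stat5a differed by 0.60 (SE 0.15, adjusted p = 0.0123), or 0.05 without passing with housekeeping centring, and by 1.27 with its second probe set (adjusted p = 0.000104). Cish, another feedback gene driven by STAT5, read 8.48, 11.05, 8.48, 8.72 and 8.08 in tumours 1 to 5 and 9.11, 9.65, 9.15 and 8.70 in livers 1 to 4. Tumour 2 stood above every liver, and of the other tumours only tumour 4 reached the lowest liver. Over all tumours Cish differed by -0.19 (SE 0.55, adjusted p = 0.806), and without tumour 2 by -0.72 (adjusted p = 0.0297). The latter fit leaves out the highest tumour, so its smaller adjusted p is no separate evidence. Jak2, the kinase gene between receptor and STAT5, differed by -0.20 (SE 0.07, adjusted p = 0.069), without overlap, and passed with 75th percentile (-0.37) and housekeeping centring (-0.75).

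Among other regulators of IGF availability, Pappa, the gene of the IGFBP4 protease PAPP-A, fell by 0.54 (SE 0.07, adjusted p = 0.000526), with tumours at 5.89 to 6.04 and livers at 6.47 to 6.60. Stc2, whose product inhibits that protease, differed by -0.18 (SE 0.08, adjusted p = 0.103), but passed with 75th percentile (-0.36, adjusted p = 0.00533) and housekeeping centring (-0.73, adjusted p = 0.000278). The binding protein genes outside the set did not pass with their brightest probe sets: Igfbp5 differed by -0.14 (SE 0.10), Igfbp6 by -0.12 (SE 0.34), Igfbp7 by -0.20 (SE 0.17) and Igfbpl1 by -0.11 (SE 0.07). With housekeeping centring Igfbp5 (-0.69), Igfbp7 (-0.75) and Igfbpl1 (-0.67) passed, and with 75th percentile centring Igfbp5 (-0.32, adjusted p = 0.0356) and Igfbpl1 (-0.29, adjusted p = 0.014). Set against the median of all genes in these settings, Igfbp5 stood at -0.060, Igfbp7 at -0.12 and Igfbpl1 at -0.033. Igfbp5, the neighbour of Igfbp2 on chromosome 1, had another probe set, ending in s_at, that fell by 2.14 (SE 0.42, adjusted p = 0.00515). Igfbp6 and Igfbp7 were highest among tumours in tumour 3, as Igfbp1 and Igfbp3 were. Igfbp7 passed without that tumour (-0.35), in a fit that leaves out its highest tumour value.

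**Figure D4:**
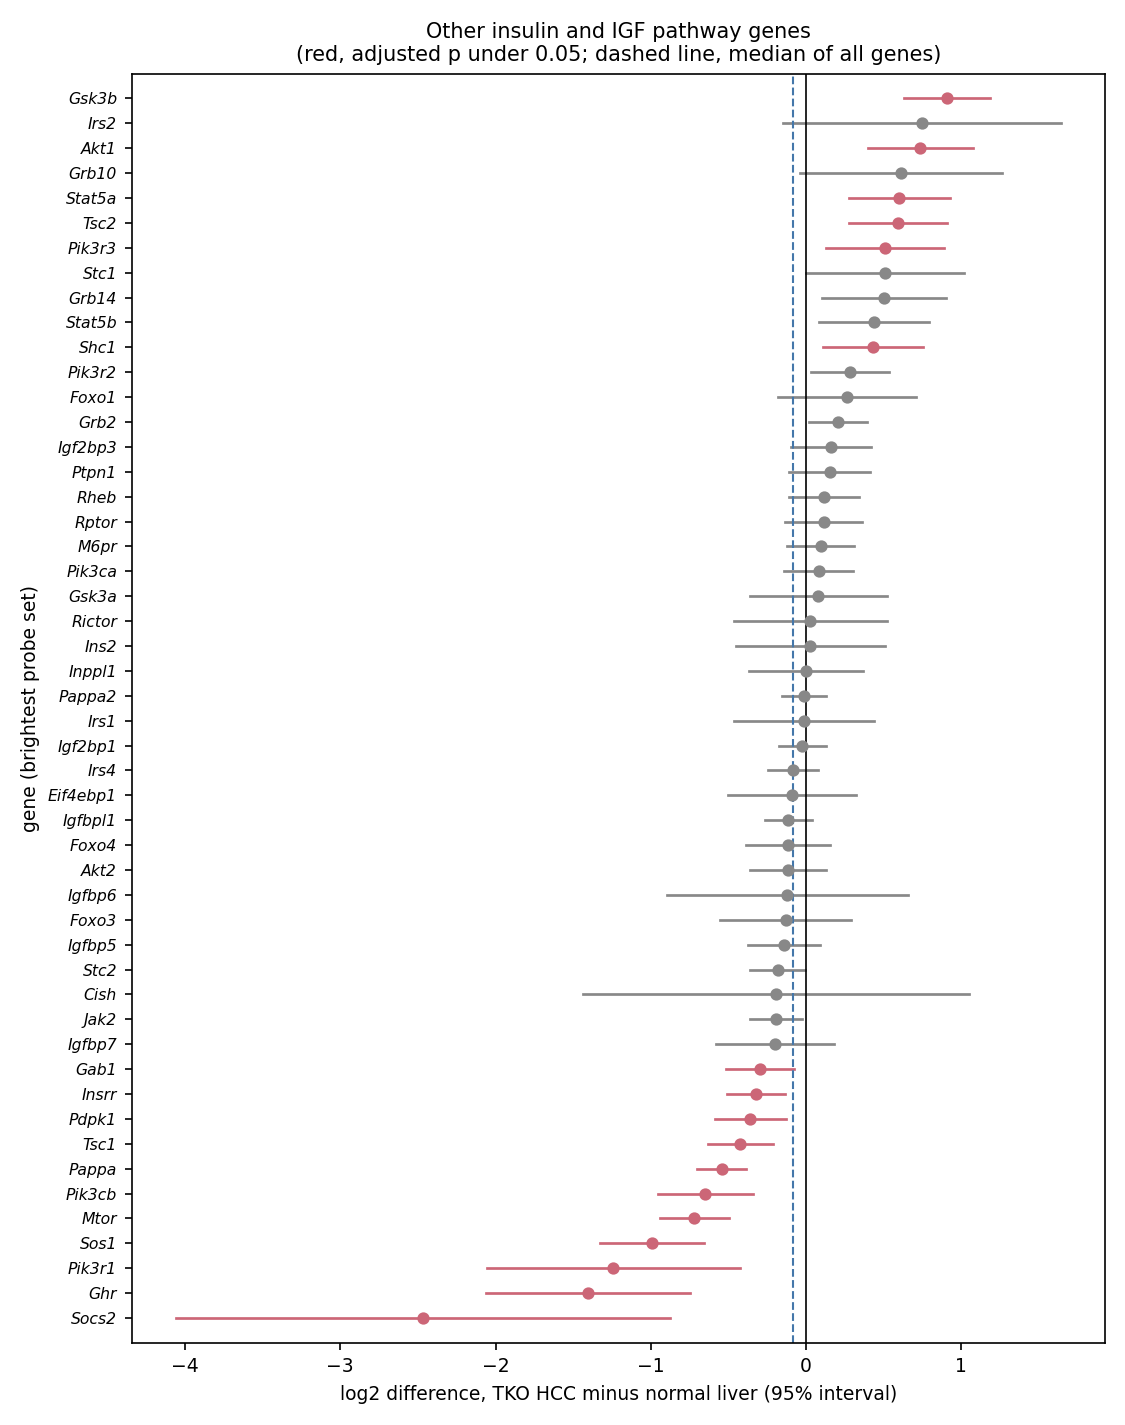
Log2 difference, TKO HCC minus normal liver, with its 95% interval (x axis) for the 50 measured genes of the wider pathway list (y axis, ordered by difference), with red for an adjusted p under 0.05 and a dashed line at the median of all genes, -0.08. The 11 genes that fell reach from Gab1 to Socs2 at -2.47, and the 6 that rose reach up to Gsk3b at 0.91.

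Downstream of the receptors, the kinase genes Gsk3b (0.91, SE 0.12, adjusted p = 0.000682) and Akt1 (0.73, SE 0.15, adjusted p = 0.00565) and the mTORC1 brake Tsc2 (0.59, SE 0.14, adjusted p = 0.0113) had the smallest adjusted p among those that rose. Of these, Akt1 (0.18) and Tsc2 (0.04) did not pass with housekeeping centring. Mtor, the kinase gene of that complex, fell by 0.72 (SE 0.10, adjusted p = 0.000695), and its other 2 probe sets gave -0.22 and -0.03 without passing. Tsc1, unlike Tsc2, fell by 0.42 with its brightest probe set (SE 0.09, adjusted p = 0.00771). Its other probe sets gave 0.33 and 0.02 without passing. Sos1, a Ras activator, fell by 0.99 (SE 0.15, adjusted p = 0.00116) with its brightest probe set only: its other 4 probe sets gave 0.05 to 0.42 and the mean over its probe sets -0.03. Of the insulin receptor substrate genes, Irs1 (-0.02, SE 0.20), Irs2 (0.75, SE 0.40) and Irs4 (-0.08, SE 0.07) did not pass. Irs4 passed with 75th percentile (-0.26) and housekeeping centring (-0.63), and Irs1 with the latter (-0.57). Relative to the median of all genes, however, Irs4 stood at -0.002 and Irs1 at 0.066 in these settings. Shc1, an adaptor that leads to Ras, rose by 0.43 (SE 0.14, adjusted p = 0.0456), a call kept with 1 array left out only without tumour 2 (adjusted p up to 0.114) and lost with 75th percentile (0.25) and housekeeping centring (-0.12). Its second probe set gave 0.57 (adjusted p = 0.0162). Gab1, a docking protein gene, fell by 0.30 (SE 0.10, adjusted p = 0.043), a call lost without tumour 2 (-0.26), tumour 4 (-0.28), tumour 5 (-0.28), liver 1 (-0.23), liver 3 (-0.30) or liver 4 (-0.31), and its other 2 probe sets gave -0.02 and -0.14 without passing. Grb2, the adaptor that binds Sos1, was 0.21 higher without passing (SE 0.08, adjusted p = 0.0866), -0.35 and past with housekeeping centring, and 0.44 with its second probe set (adjusted p = 0.00973).

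Grb10 and Grb14 encode adaptors that hold back the insulin and IGF1 receptors. Grb10 read 8.46, 8.37, 8.40, 7.09 and 7.63 in tumours 1 to 5 and 7.16, 7.66, 7.19 and 7.51 in livers 1 to 4. On this probe set, the brightest, tumours 1, 2 and 3 lay above the livers and tumour 4 below them. The log2 difference was 0.61 (SE 0.29, adjusted p = 0.13), and 0.83 (adjusted p = 0.0164) without tumour 4. That fit leaves out the lowest tumour, so its smaller adjusted p is no separate evidence. Dimmer Grb10 probe sets, with group means of 5.37 to 5.66, gave 0.07 and 0.007 without passing (adjusted p = 0.76 and 0.952). Grb14 was 0.50 higher without passing (SE 0.18, adjusted p = 0.0555; -0.05 with housekeeping centring), and it passed without tumour 2 (0.56), tumour 3 (0.60) or liver 4 (0.62).

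Igf2bp1 and Igf2bp3 encode fetal proteins that bind Igf2 mRNA. Igf2bp1 differed by -0.02 (SE 0.07) without passing, and passed with 75th percentile (-0.20) and housekeeping centring (-0.58). In both of these settings Igf2bp1 stood 0.057 above the median of all genes. The brightest Igf2bp3 probe set read 8.42, 8.35, 8.27, 8.81 and 8.31 in tumours 1 to 5 and differed by 0.16 (SE 0.11, adjusted p = 0.296; -0.39, which passed, with housekeeping and -0.02 with 75th percentile centring). The other 5 Igf2bp3 probe sets all passed, with increases of 0.92 to 2.21. The one with the largest increase, ending in s_at, read 7.86, 6.89, 7.32, 8.96 and 8.25 in tumours 1 to 5 and 5.40, 5.68, 6.01 and 5.49 in livers 1 to 4. Tumour 4, the tumour with liver-like Igf2, had the highest reading on it.

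The genes with the most similar profiles were sought for Igf2 and Igf1, the members with the largest differences, as the smallest root mean square difference over the 9 arrays after centring each gene on its own mean. For Igf1 these were Plekhb1 (0.31 log2 units), Rmdn2 (0.38) and Macrod1 (0.39), whose tumour minus liver differences were -3.02, -3.06 and -2.67. For Igf2 no gene came so near: Psat1, of serine synthesis, was at 1.62, Scd2, a fatty acid desaturase gene, at 1.86 and the proliferation marker Mki67 at 2.03. Psat1 was lowest among tumours in tumour 4, at 6.05 against 8.39 to 12.23 in the others, and 4.96 to 5.20 in livers.

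Some cell type markers moved with the groups as well. Hepatocyte markers were present in all samples, and 8 such genes averaged 12.93 to 14.10 log2 in tumours against 14.48 to 14.56 in livers, with 2 of 8 lower and none higher. The 2 lower genes were Cyp2e1 (log2 difference -4.59) and Tdo2 (-0.94). Tat (-1.72) and Cps1 (-0.64) did not pass. Alb (0.08), Apoa1 (0.05), Hnf4a (0.20) and Ttr (-0.11) did not pass either and differed little. Endothelial markers (8 genes, 4 lower) averaged 6.58 to 7.86 in tumours and 8.18 to 8.75 in livers, and Kupffer cell and macrophage markers (7 genes, 4 lower) 7.12 to 9.57 and 9.48 to 10.58. Among the endothelial markers Clec4g (-4.08), Stab2 (-1.60), Tek (-1.48) and Kdr (-1.15) were lower. Pecam1 (0.40), Cdh5 (-0.10), Lyve1 (-0.37) and Vwf (-0.95) did not pass. Among the macrophage markers Vsig4 (-3.85), Clec4f (-3.51), Marco (-2.41) and Csf1r (-1.53) were lower. Cd68 (0.69), Adgre1 (-0.53) and Cd5l (-1.77) did not pass. Stellate cell and fibroblast markers (9 genes, 2 higher and 3 lower) averaged 8.52 to 9.91 in tumours and 8.71 to 9.30 in livers. Tumour 3, the highest in Igfbp1 and Igfbp3, had the highest mean of these markers, but not every marker peaked there. Lrat, Reln and Dcn, the markers that were lower in tumours, read higher in tumour 5 than in tumour 3, while the others were highest in tumour 3. Bile duct (5 genes, 1 higher and 1 lower), lymphocyte (5 genes, 1 lower) and erythroid markers (3 genes, none past) overlapped between the groups, and Cftr, a bile duct marker, read 4.00 in tumours and 4.02 in livers, in the background range. In bulk RNA, fewer cells of a type and less RNA per cell cannot be told apart, and the part of these markers in the IGF results was not tested. RNA quality was read as the 3' minus the 5' log2 signal of control transcripts. For Actb it averaged 0.61 ± 0.08 (SD, n = 5) among tumours and 0.96 ± 0.04 (SD, n = 4) among livers, with p = 0.00794 by a two-sided exact permutation test (the lowest value possible here) and 0.0159 after adjustment over 2 controls. For Gapdh it was -0.21 and -0.28, with an exact p of 0.0635. The part of RNA quality in the IGF results was not tested.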

How the data were processed

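Per the labels' protocols, total RNA of 9 samples was isolated with Trizol and put through 2 rounds of amplification. The deposited values are log2 expression per probe set, made by the authors with RMA, per the submitters' processing notes; the sources used here give no settings. RMA as commonly run corrects background and normalises quantiles, so a shift common to most genes can be lost and dim readings are compressed. The number of arrays limits the precision, and the sources used here name no scan batch.

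Samples were grouped by title. Probe sets with 1 platform gene symbol were used (34945; 932 name several genes, 9160 none and 64 are controls), and the 10 members' symbols were unchanged in RefSeq by gene identifier. The brightest probe set over all arrays read each of 18193 genes, with no filter on dim readings. Tumours were set against livers in limma 3.58.1 (functions lmFit and eBayes; two-sided tests, no covariate) under R 4.3.3 and adjusted by Benjamini-Hochberg over all genes at a threshold of 0.05; single probe sets were fitted over all 45037. Every adjusted p of a gene is from this test, which was tried on simulated data. The simulation gave both groups the same SD for each gene. It therefore does not cover genes of unequal spread such as Igf2 (SD 3.52 in tumours and 0.14 in livers). Tables and plots used Python 3.11.15, numpy 2.4.6, pandas 2.3.3 and matplotlib 3.10.9. No array was a duplicate, the most similar pair being 0.295 log2 units apart (root mean square).

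Members and lists were chosen with earlier results of these data known. The genes named are the members, a short list of wider pathway genes with a part in IGF binding, growth hormone signalling, receptor adaptors or Igf2 RNA, the 3 smallest adjusted p in each direction, and the 3 nearest profiles of 2 members. Stat5a, Jak2, Cish, Shc1, Gab1, Grb2, Irs4 and Igfbpl1, which that short list left out, Ins2, Tsc1, and the other probe sets of pathway genes were added after their values were seen. Alternatives covered scaling, dim genes, the choice of probe set, the variance model, array weights, a replicate block, the arrays of low Xist and each array left out.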

Additional observations from a re-analysis of the deposited data

Results flagged for a closer look

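Of 74 groups of 4 or 5 arrays examined for the members and the named pathway genes other than Ins2 and Tsc1, 10 held an array whose gap to its nearest neighbour was large for the range of its group. Chance flags about 1 in 20 groups. For 3 genes the array was tumour 4: Igf2 at 6.87, with the next tumour at 14.03, Igfbp4 at 14.17, with the next at 13.94, and Igf2bp3 at 8.81, with the next at 8.42. In tumour 3 they were Igfbp6 at 8.45 (next 7.12), Igfbp7 at 11.48 (next 10.82) and Igf2bp1 at 7.55 (next 7.48). In tumour 2 it was Cish at 11.05, with the next tumour at 8.72. Among livers, Igfbp6 in liver 2 stood at 7.83 (next 7.20), Sos1 in liver 2 at 9.42 (next 9.73) and Ghr in liver 4 at 13.61 (next 13.25).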

How the results depend on the processing

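Among the alternatives, the differences of Igf1, Igfals, Insr and Igf1r kept their direction and their call with the main probe set in every setting. Of all genes, 6091 passed in the main setting, 13786 with housekeeping centring, 10310 with 75th percentile centring, 3552 with the replicate block and 4632 to 6361 with 1 array left out. Members past the threshold numbered 6, and 4 to 7 with 1 array left out. Other pathway genes past it numbered 17, 35 with housekeeping centring, 9 with the replicate block and 12 to 18 with 1 array left out.

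With housekeeping centring Igf2r was -0.17, Igfbp4 -0.52, Stat5b -0.11, Grb14 -0.051, Igf2bp3 -0.39, Shc1 -0.12 and Grb2 -0.35. With 75th percentile centring Igf2r was 0.20 (not past), Igfbp4 -0.15 and Igf2bp3 -0.016. Without the 3 arrays of low Xist Igf2 was 4.48 and did not pass, and Irs1 was 0.086. Other probe sets gave -0.011 for Igfbp4, 0.10 and -0.10 for Igf1r and -0.051 and -0.24 for Insr, none of them past. With 1 array left out the ranges were 5.17 to 7.23 for Igf2, 0.32 to 0.45 for Igf2r, -2.76 to -1.31 for Igfbp2 (past without tumour 4), -0.026 to 0.051 for Igfbp4, -0.43 to 0.045 for Igfbp6, -0.16 to 0.071 for Irs1, -0.050 to 0.015 for Igf2bp1 and -0.72 to 0.029 for Cish. Igfbp4 changed sign without tumour 4 or liver 3, Irs1 without tumours 1 or 5 or livers 1 or 3, Igf2bp1 without liver 1, Igfbp6 without liver 2 and Cish without tumour 5. The causes were not tested.

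Replicate numbers occur in both groups. Arrays of 1 number did not deviate together (correlations of -0.13, -0.07, 0.18 and -0.12 across genes), 2 of 8 arrays correlated best with their own number, and no label links them, so they were not treated as pairs. With the replicate block, on 8 arrays, Igf2 was 5.23 and Igf2r 0.34, neither past, Irs1 was 0.059 and Cish 0.029. The number of arrays limits what could be measured.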
